A study of Danio rerio with 8 samples.

Results

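The genes described here are desma, jam2a and chrna1, 3 genes of myoblast fusion and of the young muscle fibre, measured in sorted cells from embryonal rhabdomyosarcoma of zebrafish, a tumour that resembles immature skeletal muscle. They were taken as the probe sets whose only gene symbol in the array's annotation is one of these names. Each gene has 1 such probe set, so that 3 of the 15502 probe sets on the array are described, and none was left out for a low value. The tumours arose in CG1-strain zebrafish (4 times outcrossed) that carried myf5-GFP and mylz2-mCherry and had been injected as embryos with rag2-kRAS12D, an activated kras under the rag2 promoter, which is known best from lymphocytes. Tumour cells were grown in syngeneic recipients without the fluorescent reporters and isolated more than 20 days after transplantation, so that host cells in the tumour carry neither reporter; the age of the fish is not given in the labels. Each of 2 tumours was sorted into 4 populations, called GFP-only (GFP without mCherry), mCherry-only (the reverse), double-positive and double-negative cells, which gave 8 arrays and 2 per population (n = 2 tumours). All populations, the double-negative cells included, come from kras-driven tumours, and no normal muscle was analysed here. The study's design asks whether cells with high myf5-GFP differ in gene expression from the other tumour cells.

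Skeletal muscle fibres form when mononucleated myoblasts adhere to each other and fuse, after which the new fibre assembles its contractile apparatus and clusters acetylcholine receptors under the motor nerve ending. In zebrafish, jam2a codes for an immunoglobulin-superfamily receptor on the surface of fast muscle precursors that binds the jam3b product on the neighbouring cell, and fish without either protein form fast muscle whose cells stay mononucleated. The desma gene codes for desmin, the muscle intermediate filament that ties myofibrils to each other and to the cell membrane, and it is switched on in myoblasts and stays on in fibres. The chrna1 gene codes for the alpha subunit of the muscle acetylcholine receptor, which binds the transmitter and is made in young fibres before they are innervated. Rhabdomyosarcoma cells are known to express parts of the muscle program while completing it poorly, and desmin is used as a diagnostic stain for the human tumour.

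The deposited signals are on a log scale that is taken as log2 here. Since no source states the base, no folds are given. Differences are written with the subtracted population last and carry the standard error (SE) of a limma fit over all 8 arrays, and a gene counts as called at an adjusted p under 0.05 over all probe sets. The reporter gene mylpfa (formerly mylz2) was high with mCherry, at means of 10.79 (double-positive) and 10.01 (mCherry-only). Without mCherry it was lower, at 6.82 (GFP-only) and 4.66 (double-negative). Means of myf5 were 5.34 (GFP-only), 4.915 (double-positive), 4.015 (double-negative) and 3.81 (mCherry-only). Averaged over mCherry, myf5 differed by 1.215 ± 0.53 (SE) between GFP-positive and GFP-negative populations, which was not called (adjusted p = 0.424). In tumour 1 its double-positive value (3.81) was under the double-negative one (3.96). The muscle label was checked on 8 of 9 listed muscle genes, of which between 3 and 7 lay above the upper quartile of their array on every array except the double-negative array of tumour 2, where 0 did. In tumour 2 the GFP-negative arrays were unlike the rest: the mCherry-only array had a mean rank correlation of 0.648 with the GFP-positive arrays and the double-negative array one of 0.653, where tumour 1 had 0.805 and 0.849. The summed signal of 11 measured myeloid genes (of 14 listed; log2 of the sum) was higher without GFP in both tumours, at 6.61 to 6.78 in GFP-only, 8.27 to 8.59 in double-positive, 12.16 to 12.18 in mCherry-only and 11.89 to 12.13 in double-negative cells. Gene by gene, mCherry-only cells exceeded both GFP-positive populations of their tumour in 9 (all but mpx and lyz) and 11 of these genes in tumours 1 and 2, and double-negative cells in 11 and 8 (all but marco, c1qc and csf1ra). The summed signal of 7 erythroid genes (of 9 listed) was 5.89 to 5.98, 6.33 to 6.55, 9.19 to 11.04 and 11.41 to 12.30 in the same order. Double-negative cells exceeded both GFP-positive populations of their tumour in all 7 of these genes, but mCherry-only cells in only 4 in each tumour. The mCherry-only sum rested mainly on hbaa1 (9.03 and 10.96). None of these markers was at exactly 0 on any array. The part of other cells in the results below was not tested, and in such bulk samples fewer cells of a type and less RNA per cell cannot be told apart.

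Desmin transcripts were most abundant in double-positive cells and least abundant in double-negative cells, in the same order of populations in both tumours. The values of desma were 10.07 and 10.48 in double-positive, 9.86 and 9.03 in mCherry-only, 9.16 and 8.69 in GFP-only and 8.20 and 4.22 in double-negative cells of tumours 1 and 2. In each tumour both mCherry-positive populations lay above both mCherry-negative ones, an order that was not counted over all probe sets. Means were 10.28 ± 0.29 (SD, n = 2), 9.45 ± 0.59, 8.93 ± 0.33 and 6.21 ± 2.81 in that order, so that the spread between tumours was largest where the level was lowest. The difference between double-positive and double-negative cells was 4.07 ± 1.04 (SE), or 1.87 in tumour 1 and 6.26 in tumour 2, with an unadjusted p of 0.00294 and an adjusted p of 0.227 (0.0787 with the tumour as a block). For mCherry-only minus double-negative cells it was 3.24 ± 1.04 (adjusted p = 0.496), and for GFP-only minus double-negative cells 2.72 ± 1.04 (adjusted p = 0.877). The 3 populations with a reporter were not called against each other (adjusted p from 0.869 to 1). The fit gave -1.35 ± 1.04 for GFP-only minus double-positive cells, with -0.91 in tumour 1 and -1.79 in tumour 2. It gave -0.52 for GFP-only minus mCherry-only and 0.83 for double-positive minus mCherry-only cells. Averaged over GFP, mCherry-positive populations were above mCherry-negative ones by 2.29 ± 0.74 (1.29 and 3.30 in the 2 tumours, adjusted p = 0.545), and averaged over mCherry, GFP-positive populations were above GFP-negative ones by 1.77 ± 0.74 (0.59 and 2.96, adjusted p = 0.404; 0.57 when both GFP-negative arrays of tumour 2 were left out). No desma comparison passed the test with all arrays, and the sizes of its differences depended on the double-negative arrays. Without that of tumour 1, the differences from double-negative cells and both reporter effects were 2.77 to 6.06, resting on 1 double-negative array. Without that of tumour 2 the double-positive minus double-negative difference was 2.08.

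**Figure D1:**
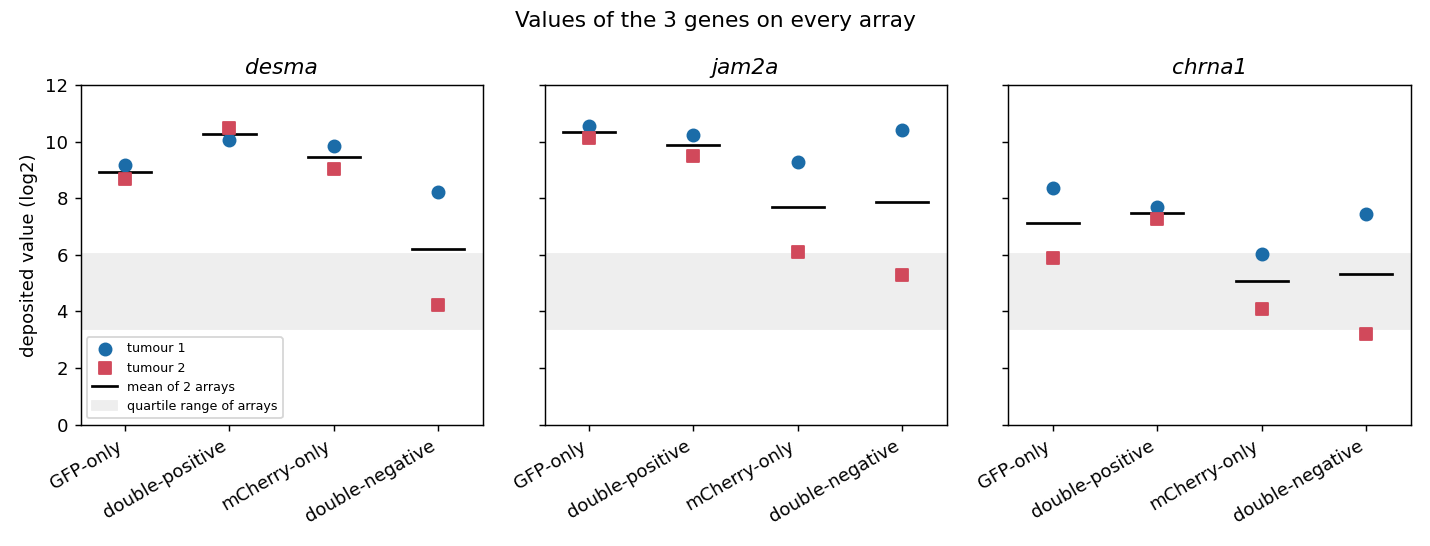
Deposited log2 values (y axis) of desma, jam2a and chrna1 in the 4 sorted populations (x axis), with circles for tumour 1, squares for tumour 2 and a black bar for the mean of 2 arrays. The grey band runs from the lowest lower quartile to the highest upper quartile of the 8 arrays, and in double-negative cells the values of tumour 2 (4.22, 5.29 and 3.21) lie far under those of tumour 1.

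Transcripts of the fusion receptor jam2a were high in GFP-positive cells of both tumours and lowest in the GFP-negative cells of tumour 2. Even there the mCherry-only value (6.11) was above the upper quartile of its array (5.81). The double-negative value (5.29) was above the median of its array (4.65). The values of jam2a were 10.54 and 10.13 in GFP-only, 10.24 and 9.50 in double-positive, 9.28 and 6.11 in mCherry-only and 10.41 and 5.29 in double-negative cells of tumours 1 and 2. The 4 GFP-positive arrays lay between 9.50 and 10.54, while the GFP-negative ones ranged from 5.29 to 10.41 and overlapped them through the double-negative array of tumour 1. In tumour 1 the mCherry-only cells were the lowest population, and in tumour 2 the double-negative cells were. The GFP-only mean of 10.34 ± 0.29 (SD, n = 2) stood above 9.87 ± 0.52 in double-positive, 7.85 ± 3.62 in double-negative and 7.70 ± 2.24 in mCherry-only cells, and no neighbours in this order differed beyond their spread. GFP-positive minus GFP-negative populations gave 2.33 ± 1.02 (SE), made up of 0.55 in tumour 1 and 4.12 in tumour 2, with an unadjusted p of 0.0454 and an adjusted p of 0.433 (0.137 in the blocked fit). The largest pairwise differences were those of GFP-only cells, 2.64 ± 1.44 when mCherry-only cells were subtracted and 2.49 ± 1.44 for the double-negative population, both uncalled (adjusted p = 0.527 and 1). The first was 1.06 when the mCherry-only array of tumour 2 was left out and 4.23 when that of tumour 1 was. The mCherry reporter had a jam2a effect of -0.31 (-0.715 in tumour 1 and 0.095 in tumour 2). Its 95% interval from -2.58 to 1.96 leaves room for effects of either sign. Leaving out the double-negative array of tumour 1 gave a GFP effect of 3.61, with 1 double-negative array remaining. Leaving out that of tumour 2 gave 1.05, and the difference between GFP-only and double-negative cells then turned to -0.08. With both GFP-negative arrays of tumour 2 left out, the GFP effect of jam2a was 0.26.

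The receptor subunit chrna1 had its higher values with GFP as well. They were 8.37 and 5.89 in GFP-only, 7.69 and 7.26 in double-positive, 6.04 and 4.07 in mCherry-only and 7.44 and 3.21 in double-negative cells of tumours 1 and 2. In each tumour both GFP-positive populations lay above both GFP-negative ones. How many of all probe sets have this order in both tumours was not counted. The tumours differed so much that the pooled groups overlapped, with GFP-only cells of tumour 2 under double-negative cells of tumour 1. The order within GFP-positive cells was opposite in the tumours, GFP-only being higher by 0.68 in tumour 1 and lower, at -1.37, in tumour 2. Means were 7.48 ± 0.30 (SD, n = 2) in double-positive, 7.13 ± 1.75 in GFP-only, 5.33 ± 2.99 in double-negative and 5.06 ± 1.39 in mCherry-only cells, and no neighbours in this order differed beyond their spread. The value of 3.21 in double-negative cells of tumour 2 was under the lower quartile of its array (3.72), and signal over background was not measured. GFP-positive minus GFP-negative populations gave 2.11 ± 0.91 (SE), or 1.29 in tumour 1 and 2.94 in tumour 2, with an unadjusted p of 0.0419 and an adjusted p of 0.420. The blocked fit had an error of 0.54 and an adjusted p of 0.0953. The largest pairwise difference was 2.42 ± 1.28 between double-positive and mCherry-only cells (1.65 and 3.19 in the tumours, adjusted p = 0.721, blocked 0.260), which became 1.44 if the mCherry-only array of tumour 2 was dropped and 3.41 if that of tumour 1 was. The mCherry effect was 0.04, with an interval from -1.98 to 2.06. That mean joined opposite signs, -1.04 in tumour 1 and 1.115 in tumour 2. As for jam2a, the size of the GFP effect depended on the double-negative arrays. It was 3.17 when that of tumour 1 was left out, and 1.06 when that of tumour 2 was. It was 0.56 with neither GFP-negative array of tumour 2.

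Across the 9 comparisons, which are 6 pairs of populations, 2 reporter effects and the interaction of both reporters, limma called 0 of the 3 genes. Of all probe sets, 0.00645% were called for GFP-only minus double-positive cells, 0.858% against mCherry-only and 0.516% against double-negative cells. For double-positive cells the shares were 0.329% against mCherry-only and 0.542% against double-negative cells, and for mCherry-only minus double-negative cells 0.277%. The GFP effect called 0.839% (2 probe sets higher and 128 lower with GFP). The mCherry effect called 0.284% (40 higher and 4 lower with mCherry) and the interaction 0%. At these shares a count of 0 among 3 genes is near the background. In this fit without a block, desma passed an unadjusted p under 0.05 in 5 comparisons. There jam2a and chrna1 passed in 1 each, the GFP effect, for which 11.3% of all probe sets had such a p. The other shares at that p were 4.91%, 5.3% and 6.17% for GFP-only, double-positive and mCherry-only minus double-negative cells and 5.47% for the mCherry effect. In the same fit no p for the interaction was under 0.230. The interaction estimates were -1.89 ± 1.48 for desma, -0.31 ± 2.04 for jam2a and 0.62 ± 1.81 for chrna1. With the tumour as a block, again 0 of the 3 genes were called. Of all probe sets, the blocked fit called 0.116%, 1.6% and 0.781% for GFP-only minus double-positive, mCherry-only and double-negative cells, and 0.858% and 1.06% for double-positive minus mCherry-only and double-negative cells. It called 0.761% for mCherry-only minus double-negative cells, 1.72% for the GFP effect, 0.561% for the mCherry effect and 0% for the interaction.

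**Figure D2:**
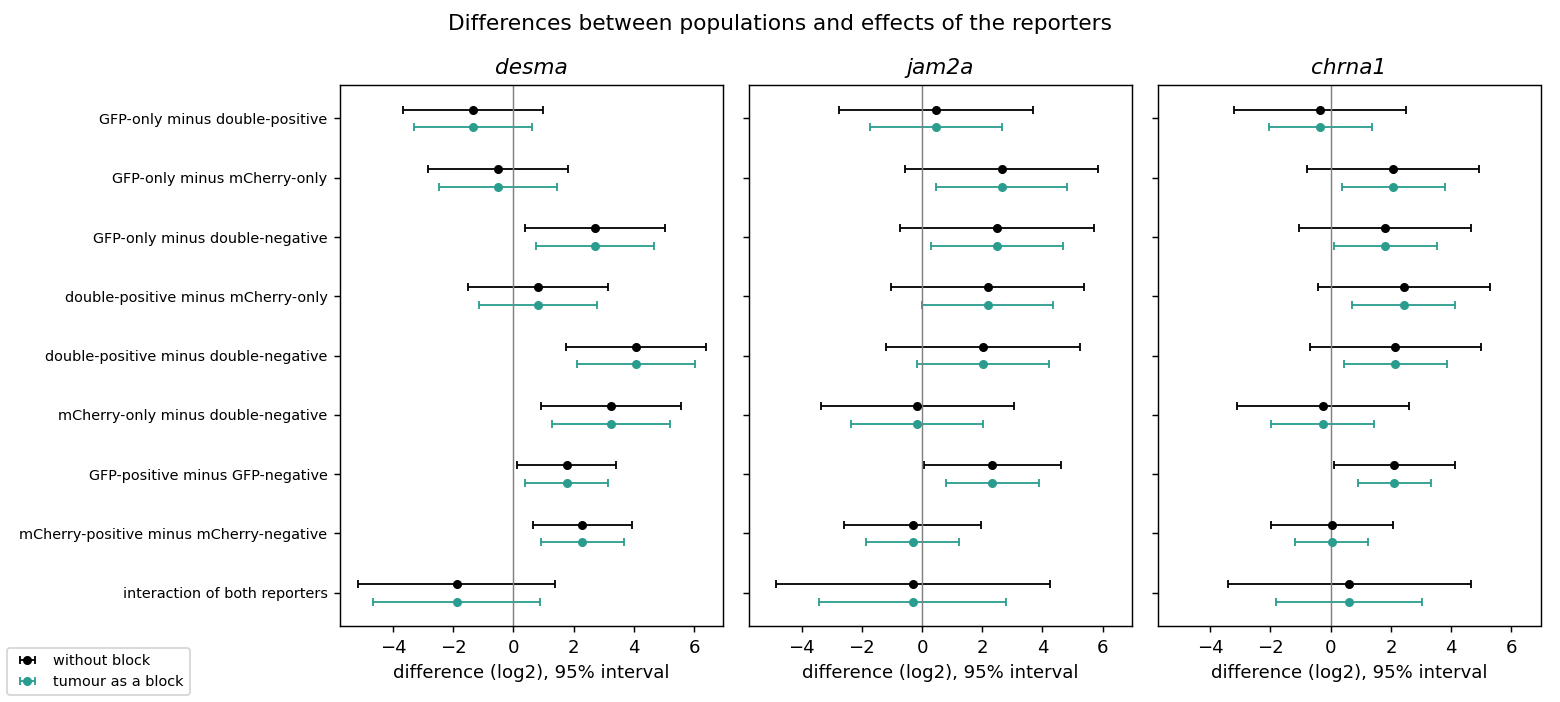
Differences of desma, jam2a and chrna1 (x axis, log2, with 95% intervals) for the 9 comparisons (y axis), in black from the fit without a block and in green with the tumour as a block. The desma intervals lie above 0 for each population minus double-negative cells and for both reporter effects, and those of jam2a and chrna1 lie above 0 without the block for the GFP effect alone.

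The 3 genes did not keep a constant ratio to each other. The value of desma minus that of jam2a on the same array was -1.38 and -1.44 in GFP-only cells of tumours 1 and 2 and -2.21 and -1.07 in double-negative cells. In double-positive cells it was -0.17 and 0.98, and in mCherry-only cells 0.58 and 2.92. It was thus higher on each of the 4 mCherry-positive arrays than on any of the 4 mCherry-negative ones, by a mean of 2.60 (2.00 in tumour 1 and 3.21 in tumour 2). Against chrna1, desma was higher with mCherry by a mean of 2.26 (2.33 and 2.19), again with both mCherry-positive populations on top in each tumour. Between jam2a and chrna1 the mCherry effect was 0.33 in tumour 1 and -1.02 in tumour 2, with no common sign. These differences between probe sets show unequal change across arrays and nothing about which gene is more abundant. They were formed after the values were seen and carry no test. How many other pairs of probe sets separate the arrays in this way was not counted. Over the 8 arrays, which share 2 tumours, jam2a correlated with chrna1 at r = 0.930 (rho = 0.905). The r of desma with jam2a and chrna1 was 0.657 and 0.672, but on ranks only 0.190 and 0.5 (rho). Without both GFP-negative arrays of tumour 2 the 3 r values were 0.604, -0.64 and 0.05 over 6 arrays, so that those of desma rested on that pair.

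**Figure D3:**
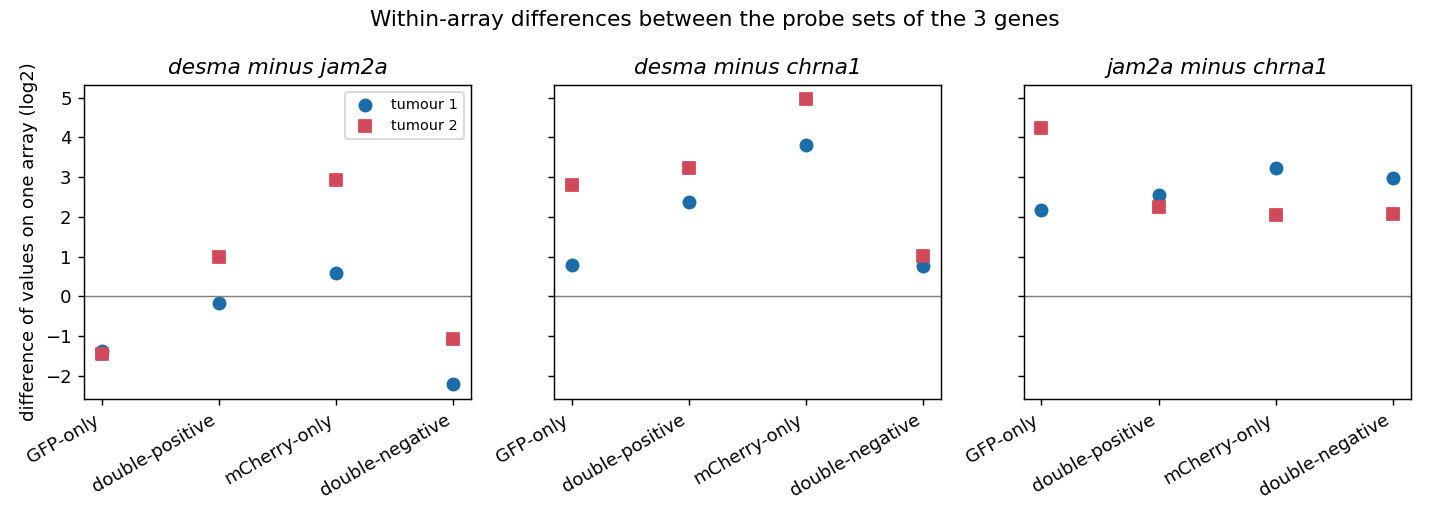
Difference between the log2 values of 2 of the genes on the same array (y axis) in the 4 populations (x axis), circles for tumour 1 and squares for tumour 2. In the panel of desma minus jam2a the mCherry-positive arrays lie between -0.17 and 2.92, above all mCherry-negative arrays, which lie between -2.21 and -1.07.

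In jam2a the tumours differed most where GFP was absent, and in all 3 genes most in double-negative cells. From tumour 1 to tumour 2 the value of jam2a differed by -0.41 in GFP-only and -0.74 in double-positive cells, but by -3.17 in mCherry-only cells and by -5.12 in double-negative cells. For desma the difference was -3.98 in double-negative cells, against -0.83, -0.47 and 0.41 in mCherry-only, GFP-only and double-positive cells. For chrna1 it was -4.23 in double-negative, -2.48 in GFP-only, -1.97 in mCherry-only and -0.43 in double-positive cells. In double-negative cells only 0.426%, 0.0774% and 0.297% of all probe sets were further down in tumour 2 than desma, jam2a and chrna1, and the median of all probe sets was 0.03. The summed signal of the 8 muscle genes went the same way, from 9.99 to 6.93 in double-negative and from 12.56 to 10.98 in mCherry-only cells. Of the 8 genes, 5 and 7 were lower in tumour 2 there, but so were 5 in double-positive and 7 in GFP-only cells. Of all probe sets, 48.7% were lower in double-negative, 43.5% in mCherry-only, 44.1% in double-positive and 44.9% in GFP-only cells. In double-negative cells the muscle sum rested mainly on ckma (8.79 to 3.53) and tnnt3b (7.95 to 3.92), while mylpfa, myf5 and tnnt3a were higher in tumour 2. The summed erythroid signal went the other way, from 11.41 to 12.30, with 0 of 7 genes lower in tumour 2, and from 9.19 to 11.04. The latter sum rested mainly on the globin gene hbaa1 (9.03 to 10.96), and 3 of the 7 genes were lower. The myeloid sum differed little (11.89 and 12.13, 12.16 and 12.18), but its genes were not alike. Of its 11 genes 6 were lower in tumour 2 in double-negative cells and 4 in mCherry-only cells. In double-negative cells mpx was lower (7.53 to 4.62) and coro1a higher (9.31 to 10.44), while lyz was at 10.81 and 10.57. With 1 array per population and tumour these differences have no replicate check.

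The fusion machinery list holds the junctional adhesion molecules, cadherins and the adaptors that drive actin remodelling at the contact site. Of its 30 genes 13 were measured, and limma called 0 in any comparison. The partner of jam2a, jam3b, had values of 7.65 and 7.59 in GFP-only, 8.05 and 8.69 in double-positive, 6.72 and 5.79 in mCherry-only and 7.20 and 5.12 in double-negative cells. In each tumour both GFP-positive populations were above both GFP-negative ones, an order that was not counted over all probe sets. Its GFP effect was 1.79 ± 0.51 (adjusted p = 0.226, blocked 0.0959), and its second probe set gave 2.17. The muscle cadherin gene cdh15, whose product holds myoblasts together, had a GFP effect of 2.70 ± 0.92 (adjusted p = 0.313, blocked 0.0586). The largest negative effect was that of elmo1, which codes for an activator of Rac that leukocytes also use, at -1.66 ± 0.55 (unadjusted p = 0.0128, not called). At an unadjusted p under 0.05, 3 genes of the list, jam2a among them, were higher and 2 lower with GFP. Of all probe sets 11.3% had such a p. The list's median GFP effect was 0.29, beside -0.01 over all probe sets. Named after its values were seen, nck1a, an actin-regulating adaptor gene, was the 1 gene called with the tumour as a block, at -2.80 ± 0.57 in GFP-only relative to mCherry-only cells (adjusted p = 0.0645, blocked 0.0293). It was at 6.81 and 6.74 in mCherry-only cells and between 3.61 and 4.64 on the other arrays. The myeloid sum was 12.16 and 12.18 in mCherry-only cells and 11.89 and 12.13 in double-negative cells. Its genes were not alike between these populations. The values of marco were 9.91 and 9.67 in mCherry-only and 6.10 and 4.38 in double-negative cells. Those of lyz were 1.85 and 3.60 in mCherry-only and 10.81 and 10.57 in double-negative cells. The part of myeloid cells in the nck1a signal was not tested.

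Of the acetylcholine receptor and neuromuscular junction list 5 of 16 genes were measured, and 0 were called in any comparison. All 5, chrna1 included, had positive GFP effects, with a median of 1.44 beside -0.01 over all probe sets. An unadjusted p under 0.05 was reached by 4 of them, chrna1 among these, and by 11.3% of all probe sets. The kinase gene musk, whose product starts receptor clustering, had values of 6.38 and 5.32 in GFP-only, 5.24 and 5.98 in double-positive, 3.79 and 2.48 in mCherry-only and 5.62 and 2.94 in double-negative cells. Its GFP effect was 2.02 ± 0.62 (adjusted p = 0.262, blocked 0.0895), close in size to the 2.11 of chrna1. The epsilon subunit gene chrne, which in mammals marks the adult form of the receptor, had 1.44 ± 0.52 (adjusted p = 0.336), and rapsn, whose product anchors the receptor, had 1.20 ± 0.53 (adjusted p = 0.440). The values of chrne did not exceed 5.39 on any array and lay at 1.75 in double-negative cells of tumour 2. The mCherry effects of these genes were 0.90 in chrne, 0.42 in rapsn and -0.69 in musk, with no call.

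Of the intermediate filament and costamere list, whose products tie the myofibrils to the membrane, 12 of 25 genes were measured and 0 were called. The values of the second desmin gene, desmb, lay between 2.71 and 5.02 on all arrays. Its double-positive minus double-negative difference was 0.04, beside 4.07 in desma (desmb was named after its values were seen, and the difference between the genes was not tested). The filamin gene flncb had the largest GFP effect, 2.50 ± 0.81 (adjusted p = 0.284). It was at 7.04 and 6.22 in GFP-only, 6.77 and 7.34 in double-positive, 5.32 and 3.21 in mCherry-only and 6.40 and 2.43 in double-negative cells. Both GFP-positive populations were thus on top in each tumour, an order that was not counted over all probe sets. The dystrophin gene dmd gave 1.96 ± 0.50 (adjusted p = 0.158), but its second probe set gave -0.28. The plectin gene pleca, whose product links desmin to its anchors, gave 1.94 ± 0.74 (adjusted p = 0.363) and 0.83 on its second probe set. Their mCherry effects were 0.14 in flncb, -0.20 in dmd and -0.55 in pleca, against 2.29 in desma. At an unadjusted p under 0.05, 5 of the 12 genes, desma among them, were higher and 0 lower with GFP, and 1, desma, was higher with mCherry. The shares of all probe sets with such a p were 11.3% for GFP and 5.47% for mCherry.

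The early fibre assembly list holds regulators, chaperones and first structural proteins of the sarcomere, and 18 of its 30 genes were measured. For double-positive minus double-negative cells 0.542% of all probe sets were called, 37 higher and 47 lower. Of the list 4 genes were called higher and 0 lower, with a list median of 2.82 beside 0.04 over all probe sets. These were the giant spring protein gene ttn.2 (4.78 ± 0.77, adjusted p = 0.0279), the myosin-binding protein gene mybphb (5.25 ± 0.87, adjusted p = 0.0322), the nebulin gene neb (3.51 ± 0.62, adjusted p = 0.0441) and the actin gene actc1b (5.59 ± 1.02, adjusted p = 0.0491). The other 3 probe sets of ttn.2 gave 2.36 to 5.56, while those of actc1b gave 5.52, 1.18 and -0.50, and close copies of the actin genes may be read by the same probes. Without either double-positive array or the double-negative array of tumour 2 the count was 0, without both GFP-negative arrays of tumour 2 it was 2, and with quantile normalization it was 2. With the tumour as a block the count was 6, all higher, beside 1.06% of all probe sets (74 higher and 91 lower). Under median centring neb and actc1b were not called (adjusted p = 0.0515 and 0.0689). Nor were neb and actc1b called when either GFP-only array was left out, although GFP-only cells are not in this comparison. Without the double-negative array of tumour 1, neb and mybphb were not called, at differences of 3.48 and 4.995. For the mCherry effect the 1 call in the list was mybphb (3.92 ± 0.62, adjusted p = 0.0407), beside 0.284% of all probe sets. This call was lost with median centring (adjusted p = 0.0588) and without any 1 of 6 arrays (adjusted p from 0.0548 to 0.274), namely both GFP-only arrays, both double-positive arrays, the mCherry-only array of tumour 1 and the double-negative array of tumour 2. The difference itself stayed between 3.22 and 4.63 with 1 array left out. For the mCherry effect the blocked fit called 3 genes of the list, all higher, and 0.561% of all probe sets (74 higher and 13 lower). For mCherry-only minus double-negative cells the list had 0 calls. There the blocked fit called 1 of its genes, higher, and 0.761% of all probe sets (82 higher and 36 lower). The values of mybphb were 9.62 and 9.13 in double-positive and 9.25 and 6.44 in mCherry-only cells, above 5.93 and 4.56 in GFP-only and 3.88 and 4.38 in double-negative cells. The caveolin gene cav3, a membrane protein of the fibre, had both a GFP effect of 2.79 and a mCherry effect of 2.83 ± 1.03 (adjusted p = 0.717), and is listed at 0 in double-negative cells of tumour 2, against 6.06 to 8.80 elsewhere. On the plane of the reporter effects desma lay among these genes, while jam2a and chrna1 lay near cdh15, flncb and dmd. Their mean mCherry effects were close to 0, but in jam2a and chrna1 the 2 tumours had opposite signs. For the GFP effect 0 genes of the 4 lists were called with all arrays. When the double-negative array of tumour 1 was left out, the lists, in the order given here, had 3, 2, 5 and 6 genes called, in a fit that called 504 of all 15502 probe sets (3.25%). With the tumour as a block 5 of the early fibre assembly list were called higher and 0 lower for the GFP effect. Of all probe sets that fit called 1.72%, of which 34 were higher and 232 lower with GFP.

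**Figure D4:**
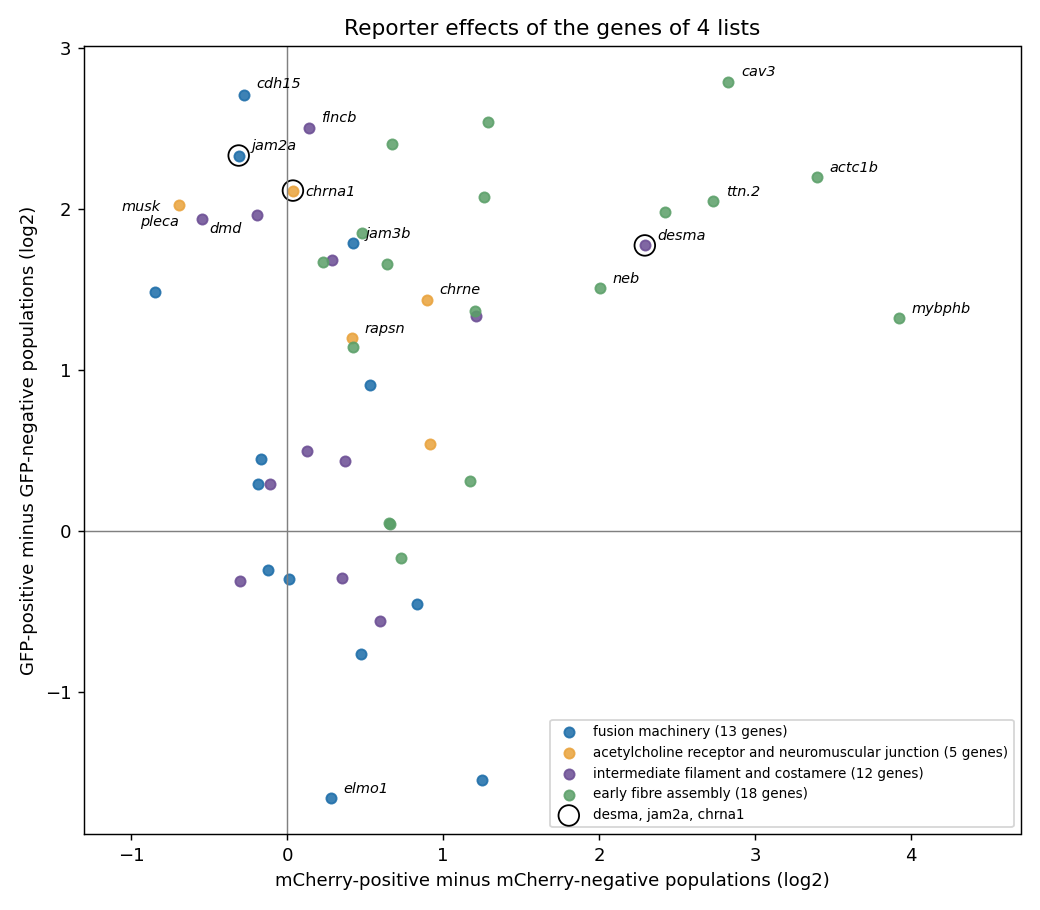
Effect of the mCherry reporter (x axis, log2) against that of the GFP reporter (y axis, log2) for the 48 measured genes of the 4 lists, coloured by list, with desma, jam2a and chrna1 circled and the genes named by rule labelled. The effects of desma are 2.29 and 1.77, those of jam2a -0.31 and 2.33 and those of chrna1 0.04 and 2.11.

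The genes with the most similar profiles were taken as the 5 with the highest Pearson r over the 8 arrays, among 4978 genes whose mean was at least the median of all probe sets. For desma they were cav3 (r = 0.991), pdlim7 (0.986), the muscle creatine kinase gene ckma (0.984), iscub (0.977) and the fast troponin T gene tnnt3b (0.977). Without both GFP-negative arrays of tumour 2 these were still between 0.914 and 0.968. The creatine kinase gene ckma was at 11.41 and 10.93 in double-positive, 11.39 and 10.05 in mCherry-only, 9.66 and 8.69 in GFP-only and 8.79 and 3.53 in double-negative cells, the order of populations seen for desma. For jam2a they were metap2b (0.989), frg1 (0.988), spout1 (0.981), ndufa3 (0.980) and polr2l (0.979), a methionine aminopeptidase, a mitochondrial respiratory subunit and an RNA polymerase subunit among them, and 0 of these is on the 4 muscle lists. Without these arrays their r was 0.569 to 0.850. For chrna1 they were the isoleucyl-tRNA synthetase gene iars1 (0.996), zmynd11 (0.984), lemd1 (0.981), st8sia6 (0.980) and the profilin gene pfn2a (0.980), with 0.933 to 0.996 without these arrays. The profile of iars1 ran from 4.99 in double-negative cells of tumour 2 to 7.11 in GFP-only cells of tumour 1, the same extremes as chrna1. These correlations describe 8 arrays that share 2 tumours, picked from 4978 genes, and carry no p.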

How the data were processed

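Total RNA was amplified and biotin-labelled with NuGEN's Ovation Pico WTA kit for each array, per the labels' protocols. The authors deposited a table of log-scale values, read here as log2 values from their range of 0 to 12.79. No source used here gives the base, probe summary or scaling, and values were used as deposited. Probe sets were named from the platform's annotation table, with symbols updated through gene identifiers to RefSeq (1 updated); 10795 had 1 symbol, 135 several and 4572 none. Where a gene had several probe sets, the brightest by mean stands for it. limma 3.58.1 under R 4.3.3 (lmFit, then eBayes) fitted 4 population means to the 8 arrays. Tests were two-sided, adjusted by Benjamini-Hochberg across the probe sets for each of the 9 comparisons, with a threshold of 0.05. There were 4 residual degrees of freedom, and the prior had 6.07. The spread behind the p-values is that between arrays of 2 tumours. The arrays of one number come from the same tumour by their labels, so the numbers pair the populations. The correlation of same-numbered deviations ran from -0.03 to 0.492 over the 6 pairs of populations. The fit was run on simulated data with independent noise and no tumour effect, so that run says nothing about the spread between these tumours. Alternatives were the tumour as a block, quantile normalization, centring on the median, leaving out the dimmest 30% of probe sets, a trended robust prior, only the arrays compared, and leaving out arrays. The genes and lists were chosen with earlier results of these data known. Genes named from a list are those called, up to 6, and the 4 with the largest reporter effect; exceptions are marked. Marker lists for endothelial (5 genes, summed signal 6.16 to 7.10), smooth muscle and cardiac (4, 7.00 to 10.01, mostly tagln), neural (8, 6.37 to 7.69) and fibroblast cells (4, 6.65 to 8.64) were read beside the others. The number of arrays limits the precision.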

Additional observations from a re-analysis of the deposited data

How the results depend on the processing

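The 3 genes had 132 alternative values each. For desma 126 kept their direction and side of the threshold, for jam2a 119 and for chrna1 118, and none lost a call, since none was called with all arrays. Quantile normalization, median centring, the trended prior, the filter on dim probe sets, fits with only the arrays compared and the replicate block for the tumour (desma double-positive minus double-negative 4.07 with SE 0.88) changed no direction or call of the 3 genes. Each new call came without the double-negative array of tumour 1, in fits that assumed the remaining one to vary like the other populations. Leaving out 1 array gave desma differences of 0.73 to 4.71 for GFP-only, 2.08 to 6.06 for double-positive and 1.25 to 5.23 for mCherry-only minus double-negative cells. The desma GFP effect was 0.78 to 2.77, its mCherry effect 1.30 to 3.29 and its interaction -3.88 to 0.11. The jam2a GFP effect was 1.05 to 3.61 and that of chrna1 1.06 to 3.17. For jam2a the differences from double-negative cells were -0.075 to 5.05 (GFP-only), -0.54 to 4.58 (double-positive) and -2.72 to 2.41 (mCherry-only), with a mCherry effect of -1.59 to 0.97 and an interaction of -2.87 to 2.25. For chrna1 they were -0.31 to 3.92 (GFP-only) and -2.39 to 1.85 (mCherry-only), with -1.59 to 0.90 for GFP-only minus double-positive cells, a mCherry effect of -1.02 to 1.095 and an interaction of -1.50 to 2.73. Without both GFP-negative arrays of tumour 2, jam2a turned to -0.075 for GFP-only and -0.54 for double-positive minus double-negative cells and to 0.67 for the interaction, and chrna1 to -0.31 for GFP-only minus double-negative cells and -0.53 for the mCherry effect. These sign changes follow from which arrays were left in. Over all probe sets, the GFP effect called 130 with all arrays, 266 with the block, and 57 to 504 with 1 array left out. The mCherry effect called 44, 87 and 7 to 73.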
